A study of Mus musculus with 4 samples.

Results

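S-phase spermatogonia were the germ cells of mouse spermatogonial cultures that carried transcripts of DNA synthesis, no transcript of the differentiation markers Stra8 and Kit, and few transcripts of mitosis. They numbered 1660 of 10360 germ cells in 3 libraries, split as 779, 857 and 24 over the libraries vehicle 1, vehicle 2 and EV 1, out of 24278 cell barcodes with counts in all. A barcode was kept with over 400 and under 4000 detected genes and under 10% mitochondrial transcripts. It was taken as a germ cell when the summed UMIs (unique molecular identifiers, 1 per captured RNA molecule) of Dazl, Tex15, Stk31 and Epcam were at least 2 and above those of the fibroblast genes Col1a1, Col1a2, Sparc and Dcn. Germ cells were 4854 of 8896 kept barcodes in vehicle 1 and 5264 of 9334 in vehicle 2, but only 242 of 4977 in EV 1. A member then had no UMI of Stra8 or Kit, under 3 UMIs of Ube2c, Cdc20, Ccnb1, Cenpa, Hmmr and Aurka together, and at least 3 UMIs of Hist1h2ap, Hist1h1b, Pclaf, Rrm2, Clspn and Lig1 together. The last sum is called the S sum here. The members were thus chosen by measured counts, and since those are counts of the same cells, what sets the members apart from other germ cells is described and not tested.

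In S phase a cell copies its genome once. Origins that were loaded with the MCM helicase in G1 are fired, polymerases and the sliding clamp PCNA extend the new strands, ribonucleotide reductase supplies deoxynucleotides, and the replication-dependent histone genes are switched on to package the new DNA. Many of these genes are driven by E2F transcription factors when the cell leaves G1. Spermatogonia are the mitotic germ cells of the testis, and undifferentiated ones renew themselves or divide before they become Kit-positive and commit to meiosis. Histone mRNAs of this class end in a stem-loop instead of a poly(A) tail, so libraries primed on poly(A) can miss many of them.

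Thy1-positive testis cells of 6-day-old male mice, 3 mice to a culture, were grown on STO cells, an embryonic mouse fibroblast line used as feeder. For 3 days the cultures were given either PBS, the vehicle, or 1 μg/mL of extracellular vesicles (EVs) taken from testes of mice 7 days after birth, which addresses whether vesicles of the neonatal testis move spermatogonia between states. Each arm had 2 libraries, and counts were used for vehicle 1, vehicle 2 and EV 1, whereas expression in EV 2 was not analysed here. With counts of 1 library used in the EV arm no test between arms was made, and nothing in the labels beyond the replicate numbers says how the 2 vehicle cultures were separated. The libraries held 23686047, 27444797 and 10793232 UMIs. Any pair of libraries shared 11 to 22 barcodes, and no S-phase barcode was shared.

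The upstream sequences of a few genes are shown because the results below include histone genes of S phase and genes that carry E2F letters. Each runs 5′ to 3′ and ends at the base before the RefSeq start on GRCm38.p6. Capitals mark the CCAAT box (written ATTGG where it lies on the other strand), the TATA box TATAAA (with TTTATA on the other strand), and the E2F letters TTTCCCGC, TTTGGCGC, TTTCGCGC or TTTGCCGC or their other strands.
Hist1h1b (linker histone of the S sum, chr13:21780626-21780725, minus strand): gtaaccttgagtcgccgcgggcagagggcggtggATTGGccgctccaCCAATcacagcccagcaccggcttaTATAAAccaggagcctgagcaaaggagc
Hist1h1a (linker histone outside the rule, chr13:23763568-23763667, plus strand): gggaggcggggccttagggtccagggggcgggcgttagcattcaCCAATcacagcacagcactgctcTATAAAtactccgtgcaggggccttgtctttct
Hist1h2ae (core histone H2A outside the rule, chr13:23571221-23571320, minus strand): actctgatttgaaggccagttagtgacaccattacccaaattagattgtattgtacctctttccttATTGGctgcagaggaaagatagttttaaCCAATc
Pclaf (PCNA-binding factor of the S sum, chr9:65890223-65890322, plus strand): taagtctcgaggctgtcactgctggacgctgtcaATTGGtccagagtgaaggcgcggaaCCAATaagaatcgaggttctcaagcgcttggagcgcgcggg
Dtl (substrate receptor that clears the licensing factor CDT1 in S phase, chr1:191575545-191575644, minus strand): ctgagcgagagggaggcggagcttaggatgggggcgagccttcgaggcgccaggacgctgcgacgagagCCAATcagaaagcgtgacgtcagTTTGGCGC
Mcm5 (subunit of the MCM helicase, chr8:75109359-75109508, plus strand): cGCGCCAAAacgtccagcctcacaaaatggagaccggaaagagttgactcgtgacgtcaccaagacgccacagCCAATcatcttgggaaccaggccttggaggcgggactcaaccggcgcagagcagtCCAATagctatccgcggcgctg

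Over the 250 bases before the start, and over both strands, the E2F letters stood at 2.16% of all 27025 genes with a RefSeq promoter. They stood at 6 of 16 matched origin licensing genes (37.5%), at 7 of 15 genes of E2F factors and S-phase entry (46.7%), at 5 of 17 chromatin genes (29.4%), at 4 of 18 checkpoint and repair genes (22.2%) and at 4 of 23 fork genes (17.4%). Of the 15 matched nucleotide supply genes none held them, nor did any of 16 stem state genes, of 9 germ cell identity genes or of the 5 matched genes of the S sum. CCAAT stood at 81.0% of 58 matched replication-dependent histone genes against 37.5% of all genes, and TATAAA at 46.6% against 14.3%. CCAAT was also common in other lists, at 73.0% of G2/M genes, 70.6% of chromatin genes and 62.5% each of licensing and stem state genes. In Dtl the E2F letters begin 8 bases before the start, and in Mcm5 149 bases before it. A gene with several listed starts counted once if any start held the letters. The genes of all promoters include non-coding ones, and letters in a window are not a binding site.

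The members carried the transcripts of germ cells. Ddx4, an RNA helicase of germ cells that the rule did not use, had 144 counts per 1000000 UMIs (CPM) in the members of vehicle 1, 128 CPM in those of vehicle 2 and 160 CPM in those of EV 1, against 4.11, 3.39 and 0.278 CPM in cells with the fibroblast genes. The list of germ cell identity genes outside the rule differed less. It summed to 1290, 1364 and 1149 CPM in the members against 318, 312 and 376 CPM in fibroblasts. Dnd1, an RNA-binding protein of the germ line, had 91.7 and 83.7 CPM in the vehicle members, and Taf4b, a transcription factor subunit, had 114 and 125 CPM. Fibroblast markers were low in them. The 15 fibroblast markers outside the rule summed to 1843 and 1516 CPM in the vehicle members and 2993 CPM in those of EV 1, against 15343 to 18981 CPM in fibroblasts, and Lum was at 0 in the members of every library. Markers of Sertoli cells summed to 20.7 to 29.2 CPM in the vehicle members and to 107 CPM in EV 1, where they were 4 UMIs. Leydig, myoid, macrophage and endothelial lists each summed to under 20 CPM in the vehicle members.

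Pclaf and Lig1 gave the largest parts of the S sum in vehicle 1. In vehicle 1, Pclaf, which binds PCNA at the fork, gave 26.3% of the gate UMIs and was found in 73.3% of members. Lig1, the ligase that joins Okazaki fragments, gave 22.3% and was found in 66.5% of them. Rrm2, the regulated subunit of ribonucleotide reductase, gave only 4.08% there and was found in 17.3% of members. Hist1h1b gave 19.0%, and Clspn, a mediator of the replication checkpoint, gave 15.3%, and Hist1h2ap was found in 42.4% of members. In vehicle 2 Hist1h1b came first with 23.4%, followed by Pclaf with 23.3% and Lig1 with 22.9%. Most members held more than 1 of the 6 genes, and only 22 vehicle 1 cells and 21 vehicle 2 cells passed on a single one. Among the 24 members of EV 1, Lig1 gave 23.0%, Pclaf 19.5%, Hist1h2ap 18.4%, Hist1h1b 17.2%, Clspn 11.5% and Rrm2 10.3% of 87 gate UMIs.

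The threshold cut through a continuous range. Among cells that passed every other step, 370, 391 and 19 (vehicle 1, vehicle 2 and EV 1) lay just outside with an S sum of 2, and 258, 275 and 15 lay just inside with 3. The median member had an S sum of 4 in both vehicle libraries and 3 in EV 1, with a highest value of 16, 13 and 6. Germ cells with no UMI of Stra8 or Kit and under 3 UMIs of each of the S and mitotic sums are called low-cycle cells here, and many of them held 1 or 2 such UMIs. Depth moved with the sum, from a median of 1473 UMIs at a sum of 0 to 1965 at a sum of 3 in vehicle 1. Members held a median of 2055, 2187 and 1564.5 UMIs in vehicle 1, vehicle 2 and EV 1, above the 1601, 1718 and 1235 of low-cycle germ cells and below the 2528.5, 2734 and 1885 of G2/M-phase germ cells. Mitochondrial transcripts took a median of 3.47%, 3.25% and 3.01% in the members. Scrublet, which scores barcodes by their likeness to simulated pairs of cells, marked 9.76% and 9.45% of vehicle members and none of 24 in EV 1, against 9.01%, 9.08% and 6.88% of other germ cells, and these cells were kept.

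Without regard to depth, the S-phase share of germ cells was 16.0% in vehicle 1, with a 95% Wilson interval of 15.0 to 17.1. It was 16.3% (15.3 to 17.3) in vehicle 2 and 9.92% (6.76 to 14.3) in EV 1. Because a sum of UMIs grows with depth and germ cells of EV 1 were shallower, each germ cell was then thinned to 1000 UMIs, which left out 149, 115 and 51 shallower cells. The steps on Stra8 or Kit, mitotic and S UMIs were applied again to the thinned counts. Cells with Stra8, Kit or mitotic UMIs at full depth could thus enter the S-phase class. In vehicle 1 the Stra8 or Kit positive class went from 32.1% to 17.7% of germ cells. The S-phase share was then 8.74% (7.96 to 9.58) in vehicle 1, 8.58% (7.85 to 9.38) in vehicle 2 and 6.28% (3.63 to 10.7) in EV 1. The 12 S-phase cells found in EV 1 after thinning put its share 2.38 percentage points below the vehicle mean, a difference within its own interval, and the interval covers counting error only. At 1500 UMIs the shares were 15.6%, 15.1% and 14.1%. The difference was 0.0236 points with an S sum of at least 4, and 0.0618 points without the histone genes in the sum, and it kept its sign at -3.17 points with an S sum of at least 2, -4.48 with a germ cell sum of at least 3, -3.82 in cells with no UMI of the 4 fibroblast genes and -2.62 without doublets. In the germ cell, fibroblast and doublet settings the thinned UMIs were drawn anew, and EV 1 had 6, 8 and 12 S-phase cells. How far a new draw alone moved the difference was not tested.

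**Figure D1:**
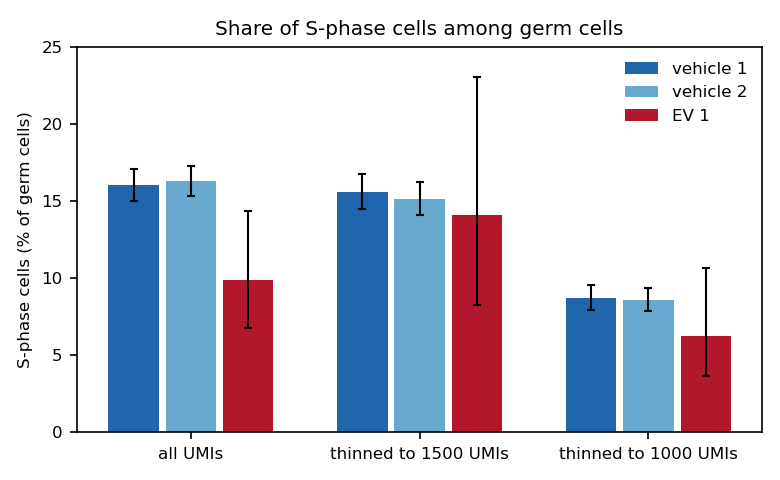
Share of S-phase cells among germ cells in vehicle 1, vehicle 2 and EV 1 (bars, % of germ cells) with 95% Wilson intervals (lines), for all UMIs and for cells thinned to 1500 or 1000 UMIs. The vehicle bars stand at 16.0% and 16.3% with all UMIs and at 8.74% and 8.58% at 1000 UMIs, where the interval of EV 1 (3.63 to 10.7) covers both.

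The thinned gate without regard to Stra8, Kit or mitosis gave 10.7% and 10.8% in the vehicle libraries and 6.81% (4.02 to 11.3) in EV 1. Cells that reached an S sum of 3 but went to another class were common in the vehicle libraries. They were 38.6% and 41.8% of G2/M-phase cells and 32.5% and 38.2% of Stra8 or Kit positive cells, and in EV 1 they were 5 of 10 and 4 of 34. S-phase transcripts in vehicle cultures were therefore found well beyond the 779 and 857 members. Fibroblasts with 3 UMIs of the same genes made up 0.887%, 0.585% and 0.0407% after thinning to 1000 UMIs, and 4.80%, 5.54% and 0.492% of all fibroblasts, whose median depth was 3646, 3955 and 2453.5 UMIs. Feeder cells can divide too, so this share is not a pure measure of free RNA.

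To describe the members against the other germ cells of the same library, UMIs were summed over each class and log2 ratios were taken with 0.5 UMI added to each sum. Of 10061 genes with at least 200 UMIs, 3 stood at 2-fold or more in every library (0.0298%) and 1 at 0.5-fold or less in every library (0.00994%). In both vehicle libraries alone these were 4 (0.0398%) and 3 (0.0298%). Few genes thus passed 2-fold in this comparison. All 3 higher genes are tied to S phase: the transcription factors E2f2 and E2f8 and the core histone gene Hist1h2ae. The comparator held cells with S-phase transcripts too, since 830 of 4075 and 1047 of 4407 other germ cells of the vehicle libraries reached an S sum of 3. Against low-cycle cells alone, 22 genes stood at 2-fold or more in every library.

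E2f8 (chr7:48866429-48881596), a repressing member of the E2F family, had 57, 52 and 4 UMIs in the members of the 3 libraries (vehicle 1, vehicle 2, EV 1, the order kept below), or 33.3, 26.2 and 107 CPM, against 10.9, 11.4 and 12.8 CPM in other germ cells. Its log2 ratios were 1.61, 1.21 and 3.06, and the last rests on those 4 UMIs, where 3 counts equal 80.2 CPM. E2f2 (chr4:136172394-136196057), an activating member, had 20.4 and 21.2 CPM in the vehicle members against 8.37 and 8.03 CPM in the other germ cells. In EV 1 E2f2 had 1 UMI in the members and 0 in the other germ cells, so its place among the 3 genes rests there on a single UMI against a count of 0. Hist1h2ae (chr13:23570517-23571220) had 222, 185 and 214 CPM against 88.4, 72.2 and 99.1 CPM, on 380, 367 and 8 UMIs. Its log2 ratios of 1.33, 1.36 and 1.17 were the most even of the 3 across libraries. In both vehicle libraries Hist2h2aa1 joined them with 1.34 and 1.08, and it had no UMI in the members of EV 1.

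Genes at the low end were few and sparse. Blnk, an adaptor known from B cell receptor signalling, had 15.2 and 10.6 CPM in the vehicle members against 33.1 and 32.5 CPM in other germ cells, and no UMI in those of EV 1 against 25.6 CPM, so that its ratio there rests on the added 0.5 UMI. Reep4, an endoplasmic reticulum protein that clears membrane from mitotic chromosomes, had log2 ratios of -1.33 and -1.26 in the vehicle libraries. Tuba1c, an alpha-tubulin, had -1.22 and -1.16. In EV 1 both of these lay the other way on 1 and 5 UMIs, at 1.19 and 1.57. Arl6ip1, with far more UMIs, had 559 and 539 CPM in the members against 1042 and 1056 CPM in other germ cells, and its log2 ratio was -0.69 in EV 1. The mitotic kinase Plk1 had 24.5 and 24.7 CPM against 41.8 and 43.5 CPM. Of the 12 lowest genes by the smallest ratio over libraries, all but Arl6ip1 had 0 UMIs in the members of EV 1, where 3 counts equal 80.2 CPM.

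**Figure D2:**
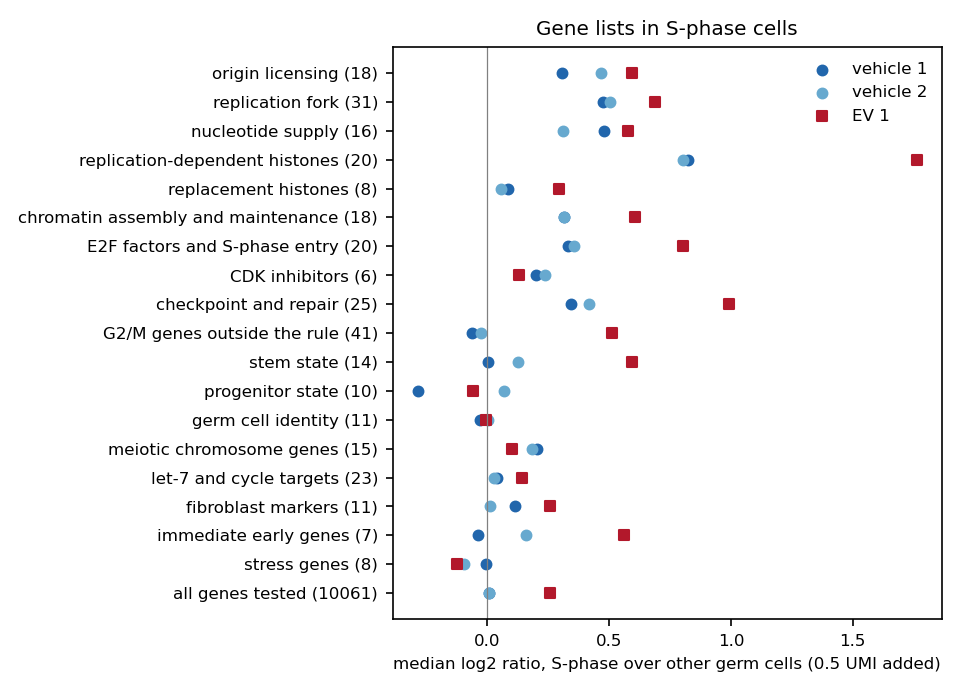
Median log2 ratio of S-phase over other germ cells (horizontal axis, 0.5 UMI added) for each gene list (rows, with the number of genes that passed the filter) in vehicle 1, vehicle 2 (circles) and EV 1 (squares). Replication-dependent histones lie farthest right, at 0.82 and 0.80 in the vehicle libraries, and germ cell identity lies near 0, and the median of all genes is 0.01 in both vehicle libraries and 0.26 in EV 1.

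In EV 1 the members were so few that the added 0.5 UMI moved the ratios. The median over all genes was 0.26 there and 0.01 in each vehicle library. Hist1h2ab, with no UMI in those 24 cells, still had a log2 ratio of 1.48. Counts of list members are therefore given for the vehicle libraries, and EV 1 by summed levels. Beside them, 32.2% of all genes lay higher and 29.5% lower in the members of both vehicle libraries, by any amount.

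Genes of the replication fork were higher in the members almost without exception. Of 31 genes that passed the filter, 30 lay above the other germ cells in both vehicle libraries and none lay below in both, with medians of 0.48 and 0.50. Summed over the list, their level was 3411 CPM against 2482 in vehicle 1, 3579 against 2490 in vehicle 2 and 3581 against 2144 in EV 1. Pcna, the sliding clamp, had 201, 226 and 187 CPM in the members against 121, 126 and 79.9 CPM. Prim1, the catalytic subunit of primase, had 146 and 155 CPM in the vehicle members against 93.6 and 92.8 CPM. Dscc1, which helps load the clamp, had 32.1 and 33.8 CPM against 17.9 and 18.2 CPM, the largest mean vehicle ratio of the list at 0.88. Pole, the leading strand polymerase, had 117 and 111 CPM against 76.2 and 77.9 CPM. Rfc1, the large subunit of the clamp loader, moved less, with 331 and 341 CPM against 269 and 268 CPM. Chtf18, another loader subunit, had -0.28 in vehicle 1 and 0.43 in vehicle 2 on 13 and 30 UMIs and was the one gene without a common direction.

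Most licensing genes were higher in the members. Of 18 that passed, 14 were higher and 2 lower in both vehicle libraries, with medians of 0.31 and 0.47. Cdc6, which loads the helicase, had 45.0 and 55.5 CPM in the vehicle members against 29.1 and 29.9 CPM in other germ cells. The helicase subunit Mcm6 had 205 and 234 CPM against 142 and 139 CPM, and Mcm5, whose upstream sequence carries E2F letters, had 112 and 103 CPM against 70.2 and 73.1 CPM. All 6 MCM subunits from Mcm2 to Mcm7 were higher in both vehicle libraries, with log2 ratios from 0.27 to 0.76. The origin recognition complex did not share one direction. Orc6 had 0.45 and 0.53 and Orc1 0.09 and 0.21, while Orc4 had -0.15 and -0.24 and Orc5 -0.06 and -0.51. Gmnn, the inhibitor of CDT1, had 209 and 206 CPM against 147 and 140 CPM.

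Replication-dependent histone genes had the largest list median. Only 20 of 64 passed the filter, and 18 of those were higher in both vehicle libraries and none lower in both. Medians were 0.82 and 0.80. Their summed level was 1378 CPM against 803 in vehicle 1, 1270 against 753 in vehicle 2 and 1336 against 527 in EV 1. Hist1h1a (chr13:23763666-23764406), a linker histone whose upstream sequence is shown above, had 150, 152 and 107 CPM against 75.1, 82.5 and 28.8 CPM. Hist1h3c, a histone H3 gene, had 46.7 and 35.8 CPM in the vehicle members against 16.5 and 20.1 CPM. At the other end Hist1h2bc had 26.9 and 24.2 CPM against 30.0 and 23.0 CPM. Single histone genes are near-identical copies, so reads may be shared or lost among them and each value is less certain than the sum.

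Replacement histones, which are made outside S phase and carry poly(A) tails, stood apart by size. Their medians were 0.08 and 0.06. H2afz, the H2A.Z variant, had 822 and 734 CPM against 729 and 715 CPM, and H3f3b, an H3.3 gene, had 3065 and 2940 CPM against 2925 and 2883 CPM. The difference between the 2 kinds of histone genes was seen in both vehicle libraries and was not tested.

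**Figure D3:**
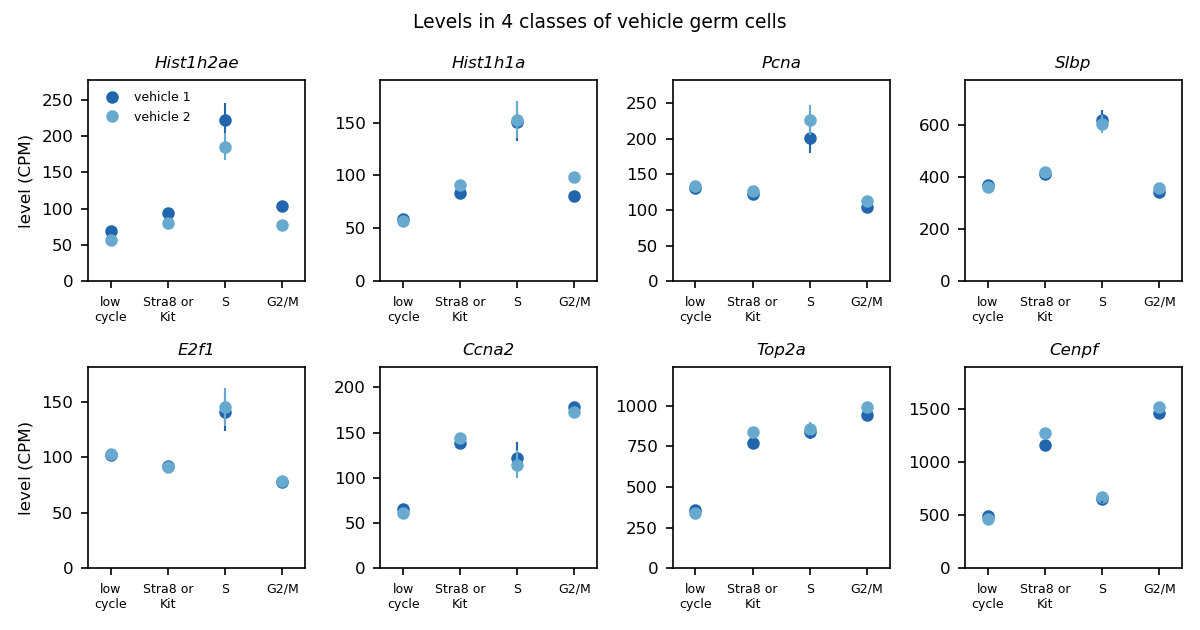
Level (CPM) of 8 genes in 4 classes of germ cells in vehicle 1 and vehicle 2, with exact 95% Poisson intervals for S-phase cells (lines). Hist1h2ae, Hist1h1a, Pcna, Slbp and E2f1 are highest in S-phase cells, whereas Ccna2, Top2a and Cenpf are highest in G2/M-phase cells.

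Nucleotide supply, chromatin assembly and repair genes followed the fork genes. For nucleotide supply 13 of 16 genes were higher and none lower in both vehicle libraries, with medians of 0.48 and 0.31. Tk1, thymidine kinase, had 63.1 and 45.9 CPM in the members against 35.5 and 30.3 CPM, and Rrm1, the large subunit of ribonucleotide reductase, had 158 and 151 CPM against 94.8 and 92.6 CPM. Dut, which keeps uracil out of DNA, had 550, 520 and 481 CPM against 363, 350 and 348 CPM, so that all 3 libraries lay within 0.50 to 0.60 on the log2 scale. Impdh2, an enzyme of guanine nucleotide synthesis, had 0.03 and 0.02.

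Of 18 chromatin genes 16 were higher and 1 lower in both vehicle libraries. Slbp, which binds the stem-loop of histone mRNA, had 618, 602 and 534 CPM in the members against 379, 387 and 361 CPM, and its log2 ratios were 0.71, 0.64 and 0.59. In the same libraries it lay between 341 and 421 CPM in every other class of vehicle germ cells. Uhrf1, which brings DNA methyltransferase to replicated DNA, had 225 and 258 CPM against 146 and 148 CPM, and Dnmt1, that methyltransferase, had 322 and 376 CPM against 244 and 264 CPM. Hells, a remodeler with high levels in all germ cells here, had only 1573 and 1657 CPM against 1404 and 1381 CPM. Asf1a, the one gene that was lower in both, had -0.07 and -0.03, while its paralog Asf1b had 0.47 and 0.50.

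Checkpoint and repair genes were higher in 23 of 25 cases and lower in 1, with medians of 0.35 and 0.42. Brca1 had 155 and 174 CPM in the vehicle members against 90.7 and 104 CPM, and Dtl had 110 and 129 CPM against 79.1 and 88.2 CPM. Atr, the kinase that senses stalled forks, went the other way with -0.34 and -0.18, and its target Chek1 had 0.23 and 0.21.

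Among E2F factors and genes of S-phase entry, 15 of 20 were higher and 2 lower in both vehicle libraries. Ccne1, the cyclin E that starts S phase, had 49.1 and 54.5 CPM against 28.7 and 27.9 CPM in other germ cells. E2f1 had 141, 145 and 267 CPM against 91.7, 91.7 and 99.1 CPM, and E2f7, a repressing partner of E2f8, had 47.9 and 49.9 CPM against 27.8 and 29.2 CPM. The D cyclins, which act in G1, hardly differed. Ccnd1 had 0.05 and 0.07, Ccnd2 0.04 and 0.08 and Ccnd3 0.01 and -0.02. Within the other classes Ccnd2 was not flat, with 685 and 749 CPM in low-cycle cells, 552 and 592 CPM in the members and 441 and 461 CPM in G2/M-phase cells. Mycn was lower in both vehicle libraries with 8.76 and 11.1 CPM against 17.3 and 17.7 CPM, on 15 and 22 UMIs. Over all tested genes with a promoter match, the 361 with E2F letters had medians of 0.10 and 0.07 in the vehicle libraries, against 0.01 and 0.00 for the 7779 without.

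G2/M genes outside the rule lay between the classes. Against all other germ cells their medians were -0.06 and -0.02 in the vehicle libraries, with 13 of 41 higher and 20 lower in both. The other germ cells hold 3 classes. Summed over the list the members had 7689 and 7658 CPM, G2/M-phase cells 11257 and 11479 CPM, Stra8 or Kit positive cells 9083 and 9384 CPM, and low-cycle cells 4767 and 4388 CPM. Top2a, a topoisomerase needed to separate copied DNA, had 839 and 860 CPM in the members, close to the 942 and 990 CPM of G2/M-phase cells and above the 358 and 343 CPM of low-cycle cells. Cenpf, a kinetochore protein of late G2, had 655 and 670 CPM in the members against 1464 and 1518 CPM in G2/M-phase cells and 497 and 461 CPM in low-cycle cells. Cks2, a partner of mitotic CDK1, had 297 and 252 CPM in the members, near the 287 and 248 CPM of low-cycle cells. The rule capped 6 other mitotic genes in the members, which limits what this order can say.

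In EV 1 the median of the same list was 0.51, beside 0.26 for all genes. Its summed level was 7536 CPM in the members, against 5609 CPM in the other germ cells, of which 174 of 218 were low-cycle cells. In vehicle 1 and vehicle 2 low-cycle cells were 1679 of 4075 and 1752 of 4407 other germ cells. Set beside low-cycle cells alone, the members had 7689, 7658 and 7536 CPM against 4767, 4388 and 4413 CPM in vehicle 1, vehicle 2 and EV 1.

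Levels also moved within the range of the S sum. Cells that passed every other step, with at least 1000 UMIs, were ordered by the S sum and thinned to 1000 UMIs. From a sum of 0 to a sum of 6 or more, replication-dependent histones went from 538 to 1818 CPM in vehicle 1 and from 443 to 1433 CPM in vehicle 2. Fork genes went from 2151 to 3659 CPM and from 2067 to 4095 CPM. G2/M genes outside the rule more than doubled on the way, from 3611 to 8051 CPM and from 3477 to 8631 CPM. Licensing genes rose to a sum of 4 or 5 and then stayed level, with 1543, 2308 and 2248 CPM at sums of 0, 4 to 5 and 6 or more in vehicle 1. Stem state genes went down from 1787 to 1486 CPM and from 1939 to 1512 CPM, and germ cell identity genes lay between 1275 and 1488 CPM at every sum. Fibroblast markers outside the rule went down too, from 2293 to 1804 CPM and from 1921 to 1460 CPM, and a link to the stem state list was not tested. The bins of the vehicle libraries held 214 to 734 cells each, whereas those of EV 1 held 1 to 69 and are not read.

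**Figure D4:**
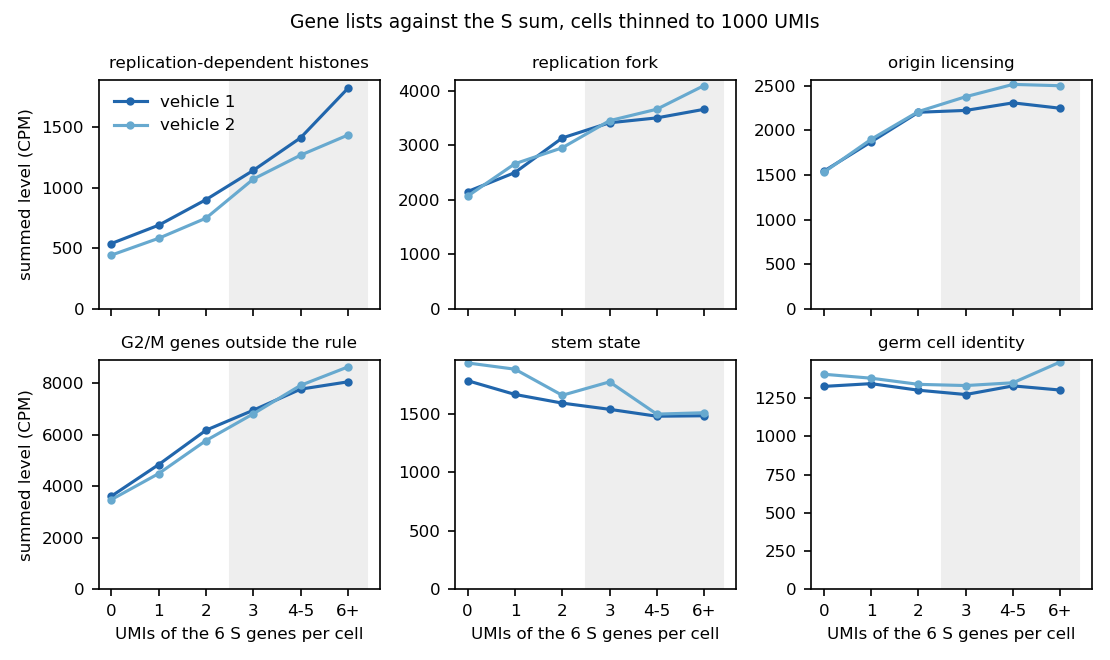
Summed level (CPM) of 6 gene lists against the S sum of the cell (horizontal axis, UMIs of the 6 S genes) in vehicle 1 and vehicle 2, for cells thinned to 1000 UMIs, with the range of members shaded. Histones, fork and G2/M genes climb from a sum of 0 on, below the threshold of 3 as well as above it, while stem state genes go from 1787 and 1939 CPM at 0 to 1486 and 1512 CPM at 6 or more.

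The vehicle members were not all alike in what filled the S sum. Enzyme genes (Pclaf, Rrm2, Clspn and Lig1) outnumbered the histone genes in 563 cells of vehicle 1 and 598 of vehicle 2, and histone UMIs outnumbered them in 149 and 176. Histones outside the rule summed to 1796 and 1597 CPM in the histone-led cells and to 1244 and 1120 CPM in the enzyme-led ones. Licensing genes had 2026 and 2072 CPM in the histone-led cells against 2223 and 2421 CPM in the enzyme-led cells. Mki67, a proliferation marker that builds up toward mitosis, had 524 and 545 CPM in the histone-led cells against 370.5 and 404 CPM in the enzyme-led cells. Median depths of the histone-led and enzyme-led cells were 2123 and 2047 UMIs in vehicle 1 and 2387.5 and 2128 UMIs in vehicle 2. These contrasts had the same sign in both vehicle libraries and were made from counts of the same cells, so they are values and not tests.

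Markers of state had no single direction. Germ cell identity genes had medians near 0, with 4 of 11 higher and 3 lower in both vehicle libraries. Stem state genes had medians of 0.00 and 0.13, with 6 of 14 higher and 5 lower. Gfra1, the GDNF receptor subunit of stem cells, had 245 and 245 CPM in the vehicle members against 196 and 209 CPM, and among those other germ cells the low-cycle ones had 227 and 237 CPM and Stra8 or Kit positive cells 162 and 176 CPM. Bcl6b, a GDNF-dependent repressor, had 23.9 and 28.2 CPM against 16.3 and 15.6 CPM. Of those that lay lower, Etv5, another GDNF target, had 107 and 97.3 CPM against 110.2 and 116 CPM, and Zbtb16, a repressor that marks undifferentiated spermatogonia, had 154 and 162 CPM against 171 and 171 CPM. Against the low-cycle cells alone the summed list was lower in the members, with 1543 and 1623 CPM against 1709 and 1858 CPM. Fibroblast markers outside the rule were lower there too, with 1843 and 1516 CPM against 2151 and 1861 CPM. Against all other germ cells, progenitor genes were lower in 4 of 10 cases and higher in 1, with medians of -0.29 and 0.07. They summed to 626, 691 and 561 CPM in the members against 732, 745 and 745 CPM. Among the lower ones was Dmrt1, a sex-determining factor, with 247 and 274 CPM against 307 and 322 CPM. Against low-cycle cells alone the summed progenitor list had no common direction, with 626 and 691 CPM in the vehicle members against 714 and 671 CPM. The mean over libraries of its median moved from -0.09 to 0.12 in that comparison. Of 6 CDK inhibitors that passed, 4 were higher in both, none by more than 0.41.

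Some meiotic chromosome genes were higher in these mitotic cells. Of 15 that passed, 9 were higher and 6 lower in both vehicle libraries. Smc1b, a cohesin subunit of meiotic chromosomes, had 726, 789 and 909 CPM in the members against 538, 554 and 527 CPM, above every other class of vehicle germ cells, where it lay between 476 and 613 CPM. Syce2, a part of the synaptonemal complex, had 348 and 353 CPM against 265 and 269 CPM, and Dmc1, the meiotic recombinase, had 103 and 111 CPM against 74.2 and 78.0 CPM. Sycp3, another synaptonemal protein, went the other way with 155, 168 and 160 CPM against 222, 227 and 399 CPM. The list has no single direction.

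The study followed let-7, a microRNA family known to restrain growth genes, so a list of its known targets and of cycle genes was read too. Of 23 that passed, 11 were higher and 7 lower in both vehicle libraries, with medians of 0.04 and 0.03, beside 0.01 for all genes. Trim71, one of the best known let-7 targets, had 150 and 189 CPM in the members against 186 and 204 CPM.

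The members of EV 1 were set against those of the vehicle libraries as log2 ratios to the vehicle mean, for 546 genes with at least 10 expected UMIs. A gene was called past 2-fold and beyond the vehicle range by more than the vehicle libraries lay apart. By this, 8 were higher (1.47%) and 3 lower (0.549%) in EV 1. The higher genes were Capza2, Mt1, Ero1l, Mt2, Tmsb4x, Smyd3, Magi1 and Tenm3, and the lower ones Atpif1, Ndufa13 and Pfdn2. Few genes of the lists could be read here, since the 546 held 1 licensing, 2 fork, 7 G2/M and no replication-dependent histone genes. Scaling changed the balance, since TMM factors gave 5 higher and 38 lower and DESeq2 size factors 5 and 34. Without vehicle 1 the counts were 16 higher and none lower, and without vehicle 2 they were 12 and 1.

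Mt1, a metallothionein that binds zinc and other metals, had 748 and 587 CPM in the vehicle members and 2565 CPM in those of EV 1, a ratio of 3.88 to the pooled vehicle members (95% exact interval 3.13 to 4.76). Mt2 had 185, 175 and 641 CPM, a ratio of 3.57 (2.27 to 5.36). Ero1l, an oxidase of the endoplasmic reticulum that hypoxia induces, had 151, 144 and 534 CPM. These levels were shared with the rest of the EV library. Other germ cells of EV 1 had 2822 CPM of Mt1 and 630 CPM of Ero1l against 716 and 149 CPM in vehicle 1, and fibroblasts of EV 1 had 8964 CPM of Mt1 against 2622 CPM. Capza2, a subunit of the actin capping protein, had 160, 148 and 588 CPM in the members and 182 CPM in other germ cells of EV 1, on 22 UMIs. Atpif1, an inhibitor of the mitochondrial ATP synthase, had 382, 314 and 134 CPM, on 5 UMIs in EV 1, a ratio of 0.387 (0.125 to 0.905).

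Summed over lists, the ratios of the S-phase genes had intervals on both sides of 1. Fork genes in EV 1 stood at 1.02 of the pooled vehicle members (0.856 to 1.21), replication-dependent histones at 1.01 (0.750 to 1.34), licensing genes at 0.954 (0.757 to 1.19) and G2/M genes outside the rule at 0.982 (0.870 to 1.10). With 24 cells a difference inside these intervals was not detectable, and with TMM factors the log2 ratio of the fork genes was -0.23 instead of 0.03. let-7 targets and cycle genes stood at 0.903 (0.720 to 1.12). Chromatin genes stood at 0.864 (0.749 to 0.990), replacement histones at 0.828 (0.717 to 0.951) and stem state genes at 0.708 (0.510 to 0.958), on 42 UMIs. Stem state genes summed to 1543 and 1623 CPM in the vehicle members and 1122 CPM in EV 1, and to 1469, 1555 and 1067 CPM in the other germ cells.

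**Figure D5:**
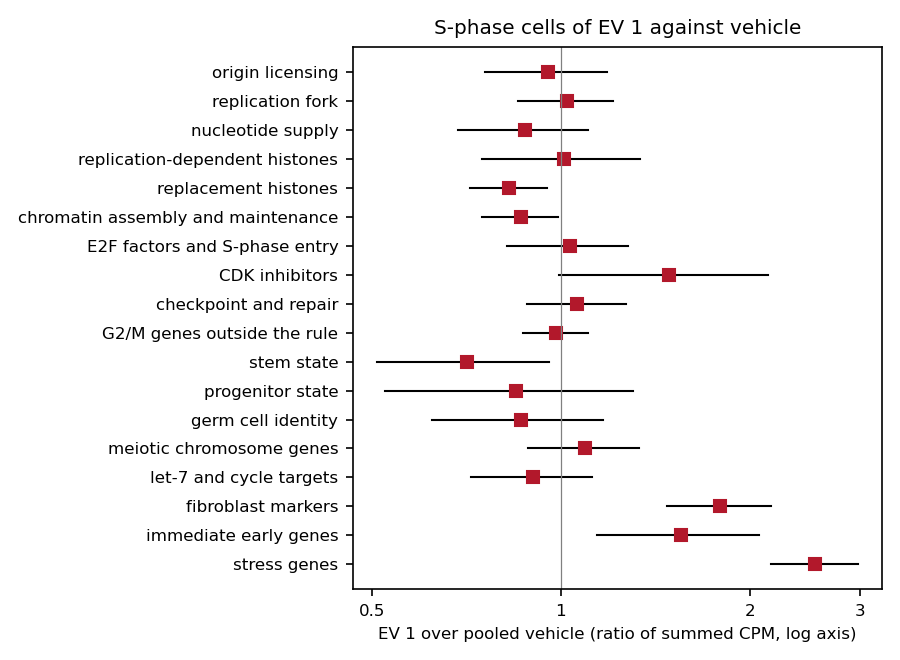
Ratio of the summed level in S-phase cells of EV 1 to that in the pooled vehicle libraries (squares, log axis) with exact 95% intervals (lines, counting error only) for each gene list. Fork genes (1.02), replication-dependent histones (1.01) and G2/M genes (0.982) lie near 1, while stress genes (2.54) and fibroblast markers (1.80) lie to the right.

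Stress genes had the highest ratio among lists with more than 5 UMIs in EV 1, at 2.54 (2.16 to 2.97), with 4276 CPM in EV 1 against 1768 and 1609 CPM, and immediate early genes stood at 1.55 (1.14 to 2.07). The stress list was as high in the other germ cells, with 4506 CPM in EV 1 against 1780 and 1690 CPM, and in fibroblasts it had 12376 CPM against 4718 and 4732 CPM. CDK inhibitors stood at 1.49 (0.992 to 2.14), and in the other germ cells they summed to 475, 476 and 671 CPM. Fibroblast markers outside the rule moved with these lists, at 1.80 (1.48 to 2.16). Among the 16 members of EV 1, 597 of vehicle 1 and 676 of vehicle 2 with no UMI of the 4 fibroblast genes of the rule, the log2 ratio was 1.41 for stress genes and 1.05 for the other fibroblast markers, against 1.35 and 0.84 for all members. The part of fibroblast RNA in the other values was not tested. Malat1, a nuclear RNA, had 15708, 16771 and 20924 CPM in the members. Library and treatment cannot be told apart, since the EV arm was 1 library.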

How the data were processed

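The deposited files were single-cell gene counts, whole numbers of UMIs per gene and barcode, which the authors made from 10x Genomics reads with Cell Ranger 7.0.1 on mm10, per the submitters' processing notes, and with the GENCODE annotation named in the study's methods. The matrices were used as deposited for 3 of 4 libraries, and expression in EV 2 was not used here. Barcodes were kept within the limits on genes and mitochondrial transcripts that the report gives, and Scrublet's method (scanpy 1.11.5, an expected rate of 0.8% per 1000 cells) marked doublets, which were kept. Cells were classed by UMI sums as the report describes, and UMIs were summed per library and class. Shares have Wilson intervals, levels exact Poisson intervals and ratios exact conditional intervals, all at 95% and for counting error only. Cells are not replicates and the EV arm held 1 library, so no test between classes or arms was made. Log2 ratios had 0.5 UMI added to each sum, and genes needed 200 germ cell UMIs, or 10 expected UMIs for the EV comparison.

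The named genes were members of the lists, the 12 genes each with the most positive and most negative ratios by their smallest absolute value over libraries of 1 direction, and up to 10 called genes each way in the EV comparison. Other genes, such as those past 2-fold in the vehicle libraries alone, were named after their values were seen. The members and gene lists were chosen with earlier results of these data known. Gene coordinates are those of GENCODE on GRCm38, and promoters are from RefSeq on GRCm38.p6. Alternatives changed the depth, the thresholds of the rule, the comparator, the filter, the doublets, the replicate used and the scaling (TMM in edgeR 4.0.16, size factors in DESeq2 1.42.0), and 2 of them were added after the data were seen. The scripts used Python 3.11.15, numpy 2.4.6, pandas 2.3.3, scipy 1.17.1 and R 4.3.3, and were tested on simulated data. Values of 2 list members are not reported here.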

Additional observations from a re-analysis of the deposited data

Results flagged for a closer look

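The median log2 ratio of the G2/M genes outside the rule, in S-phase cells against other germ cells, was 0.51 in EV 1 and -0.06 and -0.02 in vehicle 1 and vehicle 2. It was singled out because the sign differed between the arms. The difference was not tested, since the EV arm held 1 library with 24 S-phase cells. The other germ cells differed in make-up, with low-cycle cells 174 of 218 in EV 1, 1679 of 4075 in vehicle 1 and 1752 of 4407 in vehicle 2. Against low-cycle cells alone the summed list had 7536 against 4413 CPM in EV 1. In vehicle 1 and vehicle 2 it had 7689 against 4767 CPM and 7658 against 4388 CPM. The median of all genes was 0.26 in EV 1 and 0.01 in each vehicle library.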

How the results depend on the processing

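No paired analysis was possible because EV 1 was the only EV library with counts used here, so that the arms shared 1 replicate number. The difference in S-phase share, EV minus vehicle, was -2.38 percentage points, -6.25 without thinning, 0.0236 with an S sum of at least 4 and 0.0618 without the histone genes, and -2.45 to -2.30 when either vehicle library was left out. Genes 2-fold higher in S-phase cells in every library numbered 3, and were 22 against low-cycle cells, 11 after thinning, 8 by the mean over cells, 14 with 50 UMIs as filter, 1061 with no filter, 7 without doublets, 8 without Stra8 or Kit positive cells and 4 to 11 with 1 library left out. Genes lower numbered 1, and were 0 after thinning, 0 by the mean over cells, 0 without Stra8 or Kit positive cells and 3 to 7 with 1 library left out. The mean over libraries of the fork list's median went from 0.56 to 0.82 in cells of 2000 to 6000 UMIs, where EV 1 had 3 members. In those cells that of all genes went from 0.09 to 0.37. For the G2/M list it went from 0.14 to 0.78 against low-cycle cells. For the progenitor list it went from -0.09 to 0.12 against low-cycle cells and to 0.13 after thinning. It was 0.25 for that list in cells of 2000 to 6000 UMIs and 0.09 without Stra8 or Kit positive cells.

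In the EV comparison, 8 genes were higher, and 5 with TMM factors, 5 with DESeq2 size factors, 79 with 5 expected UMIs, 1265 with 1 expected UMI, 3 in cells with no fibroblast UMI and 12 to 16 with a vehicle library left out. Genes lower numbered 3, and were 38, 34, 38, 527 and 6 under the same settings in that order, 8 after thinning and 0 to 1 with a vehicle library left out. The summed log2 ratio of the fork genes went from 0.03 to -0.23 with TMM factors, and that of stress genes from 1.35 to 1.08 and 1.10 with TMM and DESeq2 factors. The TMM factor of the EV 1 members was 1.17 against 0.963 and 0.985 in the vehicle libraries. The cause of these shifts was not tested. The 24 S-phase cells of EV 1 held 37421 UMIs, and a gene at 0 there allows up to 98.6 CPM.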
